A study of Arabidopsis thaliana with 33 samples.

Results

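The 10 genes described here control or carry out seed maturation in *Arabidopsis thaliana*: the regulators LEC1, LEC2, ABI3 and FUS3, the 12S storage globulin genes CRA1, CRU2 and CRU3, the 2S albumin gene SESA1, the oleosin gene OLEO1 and the late embryogenesis gene EM6. They were chosen by name and locus, with earlier results of these data known. They are 10 of the 32823 genes in the RNA tables and of the 32833 in the tables of acetylated histone H3 (H3ac). RNA-seq covered 5 genotypes of untreated 12-day-old seedlings grown on plates in long days, with 3 biological replicates each. These were the wild type Col-0 (WT), a T-DNA insertion line of hhp1, a triple mutant of MBD1, MBD2 and MBD4 (mbd124), the quadruple mutant sant1234-null and a T-DNA insertion line of hda6. H3ac was mapped by ChIP-seq in 3 of these genotypes, WT, sant1234-null and hda6, also in 3 replicates. From the series title, the mutated genes belong to a complex of the histone deacetylase HDA6 with a domesticated Harbinger transposase. Replicates are merged to 1 value per genotype in the deposited tables, so values carry no spread between replicates, and each mutant was compared with the same WT libraries. The labels name no alleles. In the authors' deposited tables HDA6 RNA did not differ in hda6 by the test (log2 change 0.15, adjusted p 0.735) and gave no check of that label. In mbd124 the authors' test gave MBD1 at 0.0476 FPKM against 15.5 in WT (adjusted p 0.619). MBD4 was at 0.208 against 21.8 (adjusted p 0.177) and MBD2 at 6.45 against 17.5 (adjusted p 0.000861). MBD2 alone of these was thus called, though MBD1 and MBD4 had the lower values in mbd124.

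Seed maturation is the late phase of embryo growth in which storage proteins and oil accumulate and the embryo becomes tolerant of drying. LEC1 is a subunit of a nuclear factor Y complex, which binds CCAAT boxes, and LEC2, ABI3 and FUS3 are B3-domain transcription factors that bind RY elements in promoters of storage genes. After germination the programme is shut down by the B3 repressors VAL1 and VAL2, by histone deacetylases and by Polycomb complexes, and seedlings that fail to do so can form embryo-like tissue. H3ac is a mark of active chromatin that deacetylases such as HDA6 remove.

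The promoters that follow are shown because their letters link the regulators with the genes they act on. They are the 250 bases before the annotated gene start in TAIR10.1, read 5′ to 3′ on the strand of the gene, and capitals mark the RY core CATGCA and the core of the abscisic acid response element, ACGTG, each searched on both strands. A palindromic CACGTG counts once on each strand.
FUS3 promoter, chr3:9856213-9856462, minus strand: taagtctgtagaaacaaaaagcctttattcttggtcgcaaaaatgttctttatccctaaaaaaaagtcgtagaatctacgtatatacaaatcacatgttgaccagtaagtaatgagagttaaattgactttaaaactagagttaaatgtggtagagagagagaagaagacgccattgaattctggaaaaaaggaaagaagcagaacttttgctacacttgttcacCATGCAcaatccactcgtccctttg
CRA1 promoter, chr5:17758337-17758586, minus strand: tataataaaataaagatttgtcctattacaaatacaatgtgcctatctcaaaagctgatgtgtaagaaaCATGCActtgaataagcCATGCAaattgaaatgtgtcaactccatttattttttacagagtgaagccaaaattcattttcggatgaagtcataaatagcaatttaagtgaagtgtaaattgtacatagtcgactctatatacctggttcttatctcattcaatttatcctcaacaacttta
CRU3 promoter, chr4:14087306-14087555, plus strand: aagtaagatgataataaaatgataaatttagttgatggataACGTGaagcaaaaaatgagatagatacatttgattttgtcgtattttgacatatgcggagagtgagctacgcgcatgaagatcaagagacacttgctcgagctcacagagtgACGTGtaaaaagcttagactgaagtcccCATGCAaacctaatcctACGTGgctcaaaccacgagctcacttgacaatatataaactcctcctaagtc
SESA1 promoter, chr4:13607079-13607328, plus strand: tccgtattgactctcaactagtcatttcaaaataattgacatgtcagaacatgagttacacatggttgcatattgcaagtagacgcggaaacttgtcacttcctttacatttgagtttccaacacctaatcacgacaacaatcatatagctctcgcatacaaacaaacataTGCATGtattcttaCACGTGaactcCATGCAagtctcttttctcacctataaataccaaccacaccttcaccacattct

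The RY core stood in 5 of the 10 promoters, those of FUS3, CRA1, CRU3, SESA1 and OLEO1, and in 8.44% of all 27431 promoters of this length. Counted from the gene start, with -1 as the base before it, the first base of the match lay at -25 in FUS3, at -181 and -164 in CRA1, at -69 in CRU3 and at -79 and -54 in SESA1. ACGTG stood in 4 of the 10, those of CRU3, SESA1, OLEO1 and EM6, against 22.9% of all promoters, and 3 of the 10 held both motifs against 2.22%. The CCAAT box, searched on both strands, stood in 3 of the 10, those of LEC1, CRU2 and EM6, against 46% of all promoters. A match describes these letters and is not a binding site measured here.

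RNA of the 10 genes was near the lower limit of the libraries in WT seedlings. Summed over the 10, the authors' FPKM (fragments scaled by transcript length and library size) came to between 0.910 and 0.929 in the 4 tables, which were scaled separately. The lowest FPKM values of long genes clustered at 1 step, worth 0.0217 FPKM for a transcript of 1 kb in WT, and the fragment numbers below are estimates from that step over all libraries of a genotype. A gene was called at an adjusted p under 0.05 in the authors' deposited tables, which mark most genes this low as not tested. The leaf markers CAB3, RBCS1A and RBCS3B together had 13660 to 13970 FPKM in WT, and the seed coat markers TT2, BAN and TT10 had 0.514 to 0.525. In whole seedlings, fewer cells of a type and less RNA per cell cannot be told apart.

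**Figure D1:**
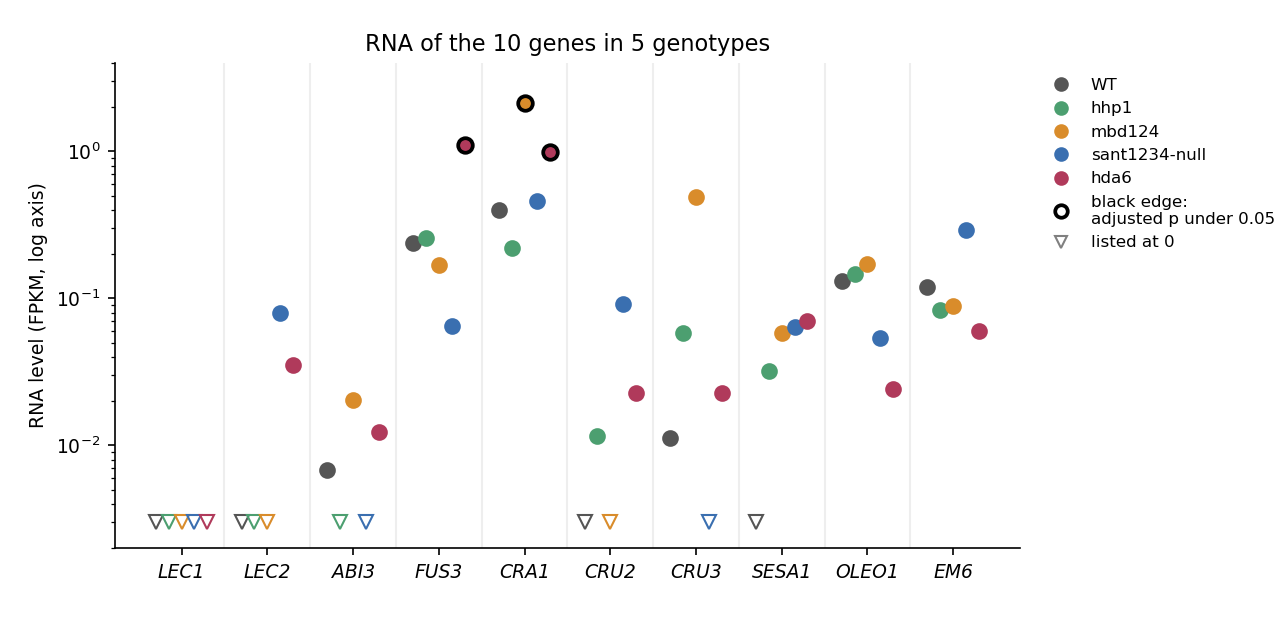
RNA level of each of the 10 genes (FPKM, log axis) in the 5 genotypes, 1 value per genotype as the authors deposited it, with WT from the hda6 table. Open triangles are values listed at 0, and a black edge marks an adjusted p under 0.05 in the authors' deposited tables: FUS3 and CRA1 in hda6 and CRA1 in mbd124.

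Among the regulators, FUS3 was the gene with RNA in each genotype. FUS3 (AT3G26790, chromosome 3, 9853828 to 9856212, minus strand) sets embryo identity and opposes gibberellin synthesis in the seed. The authors' values were 0.239 to 0.244 FPKM in WT (about 18.0 fragments), 0.259 in hhp1, 0.168 in mbd124, 0.0651 in sant1234-null and 1.10 in hda6. The hda6 value stood above the others, and the sant1234-null value, from about 4.86 fragments, was the lowest. In the authors' deposited table FUS3 was higher in hda6 than in WT by 2.20 on the log2 scale (4.61-fold, SE 0.69 derived from the deposited p, adjusted p 0.0149), from about 86.8 fragments. It was not tested in the other 3 tables.

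LEC1 (AT1G21970, listed as NFYB9, chromosome 1, 7727577 to 7729649, minus strand) was listed at 0 FPKM in each genotype. LEC2 (AT1G28300, chromosome 1, 9896867 to 9899876, minus strand), which can trigger somatic embryos when overexpressed, was listed at 0 in WT, hhp1 and mbd124, at 0.0802 FPKM in sant1234-null and at 0.0350 in hda6. These last values stand for about 4.92 and 2.27 fragments. ABI3 (AT3G24650, chromosome 3, 8997370 to 9001185, plus strand), which carries abscisic acid signals to storage genes, lay between 0.00681 and 0.00696 FPKM in WT, about 1 fragment, and at 0 in hhp1, 0.0204 in mbd124, 0 in sant1234-null and 0.0123 in hda6. None of these 3 genes was tested in any table, so no difference could be called at this depth.

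The storage globulin gene CRA1 (AT5G44120, chromosome 5, 17756238 to 17758336, minus strand) had the highest WT level of the 10, at 0.402 to 0.410 FPKM, about 33.4 fragments. It stood at 0.219 FPKM in hhp1, 2.15 in mbd124, 0.457 in sant1234-null and 0.988 in hda6, so mbd124 was highest and hda6 next. The authors' deposited table gave a rise of 2.40 on the log2 scale in mbd124 (5.27-fold, SE at most 0.59 because the deposited p is the smallest the table holds, adjusted p 0.000861). In hda6 the rise was 1.30 (2.46-fold, SE 0.42, adjusted p 0.0202) in the authors' deposited table. The difference between these mutants was not tested.

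The other 2 globulin genes were near 0 in WT. CRU3 (AT4G28520, listed as CRC, chromosome 4, 14087556 to 14089796, plus strand) had 0.0112 to 0.0115 FPKM in WT, 0.0577 in hhp1, 0.493 in mbd124, 0 in sant1234-null and 0.0228 in hda6. The mbd124 value stands for about 42.0 fragments against about 0.945 in WT, and the authors' deposited table marks the gene as not tested. CRU2 (AT1G03880, listed as CRB, chromosome 1, 985751 to 988146, plus strand) was listed at 0 in WT and mbd124, and at 0.0117 FPKM in hhp1, 0.0911 in sant1234-null and 0.0228 in hda6. The largest of these is about 6.93 fragments. The high mbd124 values were thus those of CRA1 and CRU3, while CRU2 had none there.

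SESA1 (AT4G27140, listed as AT2S1, chromosome 4, 13607329 to 13608031, plus strand), a sulphur-rich albumin, was listed at 0 in WT and at 0.0322 FPKM in hhp1, 0.0578 in mbd124, 0.0641 in sant1234-null and 0.0702 in hda6, about 1.19 to 2.43 fragments. OLEO1 (AT4G25140, chromosome 4, 12900430 to 12901577, plus strand), the coat protein of oil bodies, had 0.132 to 0.135 FPKM in WT, 0.147 in hhp1, 0.171 in mbd124, 0.0537 in sant1234-null and 0.0242 in hda6. It overlaps the neighbour AT4G25150, so its reads may be shared. EM6 (AT2G40170, chromosome 2, 16779552 to 16780368, minus strand), a hydrophilic protein of drying embryos, had 0.119 to 0.121 FPKM in WT, 0.0836 in hhp1, 0.0887 in mbd124, 0.294 in sant1234-null and 0.0603 in hda6. The values of these 3 genes all stand for under 10 fragments, and none was tested.

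In all, 1 of the 10 genes was called higher in mbd124, where 4.85% of 21031 tested genes were higher, and 2 in hda6, where 7.25% of 21450 were. In hhp1 and sant1234-null 0 of the 10 were called, against 6.14% and 15.3% of tested genes called in either direction, since none of the 10 was tested in those tables. None was called lower. The members tested numbered 1 in mbd124 and 2 in hda6, and each had been tested through the mutant in which it was high. Of tested genes under 0.5 FPKM in WT, like FUS3 and CRA1, 11.2% were called higher in mbd124 and 36% in hda6. The summed level of the 10 was 0.810 FPKM in hhp1, 3.15 in mbd124, 1.10 in sant1234-null and 2.34 in hda6. The median change of the 10, on the log2(FPKM + 0.1) scale, was 0.03 in hhp1, 0.09 in mbd124, 0.06 in sant1234-null and 0.22 in hda6, beside 0 for all genes in each table.

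The H3ac value was higher in sant1234-null than in WT for each of the 10 genes, and highest in fold at LEC1 and SESA1. For EM6 the ratio of 1.09 lay within counting error. Of genes within the WT range of the 10, 77.4% were higher too. The authors' tables by gene give reads and RPKM (reads scaled by gene length and mapped reads), 1 value per genotype. Reads counted over genes summed to 69959151 in WT, 78316244 in sant1234-null and 68093284 in hda6. Intervals are exact 95% intervals for counting error alone and say nothing of replicates, so no test was made on these values. The input libraries were not used here.

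**Figure D2:**
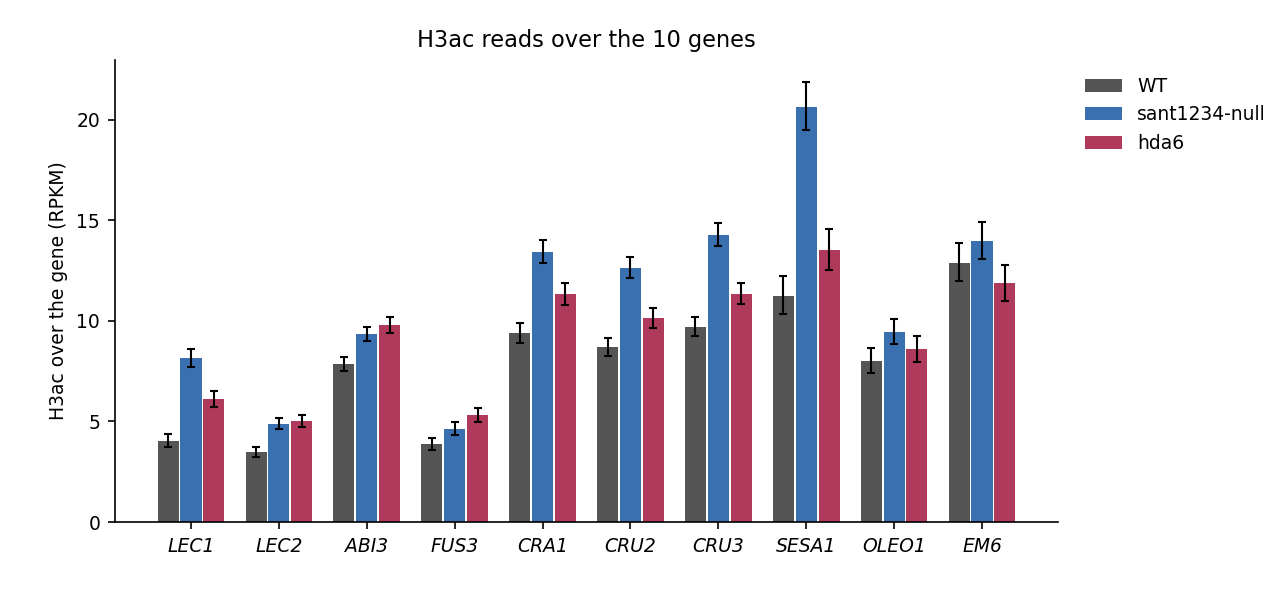
H3ac over each of the 10 genes (RPKM, 1 value per genotype) in WT, sant1234-null and hda6, with exact 95% counting intervals as error bars. In WT the regulators LEC1, LEC2 and FUS3 lie between 3.46 and 4.03, under the other 7 genes, and SESA1 reaches 20.7 in sant1234-null.

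In WT the genes fell into a low and a higher set. LEC2 had 3.46 RPKM, FUS3 3.86 and LEC1 4.03, with overlapping counting intervals, and these lay at percentiles 7.10 to 9.20 of all 32548 nuclear genes. ABI3 had 7.84 and OLEO1 8.00, again overlapping. CRU2 had 8.70, CRA1 9.38, CRU3 9.71, SESA1 11.2 and EM6 12.9, which is percentile 60.9. LEC1, LEC2 and FUS3 thus carried the least H3ac of the 10, and EM6 and SESA1 had the highest values, with overlapping intervals.

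LEC1 had 4.03 RPKM in WT, 8.16 in sant1234-null and 6.11 in hda6, ratios of 2.02 (counting interval 1.84 to 2.23) and 1.51 (1.37 to 1.69). Its percentile among nuclear genes moved from 9.20 to 24.2 in sant1234-null and 10.3 in hda6. SESA1 had 11.2, 20.7 and 13.5 RPKM, ratios of 1.84 (1.66 to 2.04) and 1.20 (1.07 to 1.35), and moved from percentile 53.4 to 81.7 and 62.6. These 2 genes had the largest ratios in sant1234-null. In hda6 LEC1 was followed by LEC2 and FUS3. The percentile of FUS3 fell, from 8.44 in WT to 6.95 in sant1234-null and 7.53 in hda6. Those of LEC2, OLEO1 and EM6 rose in sant1234-null but fell in hda6, from 7.10, 32.2 and 60.85 to 6.67, 25.5 and 52.2. Those of ABI3, CRA1, CRU2 and CRU3 rose in both mutants. The albumin genes SESA2, SESA3, SESA4 and SESA5, outside the 10, had ratios of 1.56, 1.06, 1.31 and 1.05 in sant1234-null.

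The 12S globulin genes among the 10 gave like ratios. CRA1 went from 9.38 RPKM to 13.4 in sant1234-null and 11.3 in hda6 (ratios 1.43 and 1.21), CRU2 from 8.70 to 12.6 and 10.1 (1.45 and 1.16), and CRU3 from 9.71 to 14.3 and 11.4 (1.47 and 1.17). For each of them the counting interval of sant1234-null lay above that of hda6. The cruciferin D gene (AT1G03890), a further globulin gene outside the 10, had lower ratios. These were 1.17 (1.09 to 1.26) in sant1234-null and 1.08 (1.005 to 1.17) in hda6. Of the B3 regulators, LEC2 went from 3.46 to 4.89 and 5.02 RPKM (1.41 and 1.45), FUS3 from 3.86 to 4.64 and 5.32 (1.20 and 1.38) and ABI3 from 7.84 to 9.34 and 9.79 (1.19 and 1.25), with the hda6 value the higher one in each and, for FUS3, beyond the counting intervals. OLEO1 went from 8.00 to 9.45 and 8.60 (1.18 and 1.07) and EM6 from 12.9 to 14.0 and 11.9 (1.09 and 0.921), and the intervals of both EM6 ratios and of the OLEO1 ratio in hda6 include equality.

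The ratio was above 1 for 10 of the 10 genes in sant1234-null, as for 58.6% of nuclear genes and 77.4% of the 17494 genes within the WT range of the 10. It was above 1 for 9 of 10 in hda6, as for 58.2% and 82.2%. At least 1.5-fold higher were 2 of the 10 in sant1234-null, LEC1 and SESA1, against 15.8% of nuclear genes, 17.6% of genes in that range and 28.5% of the 11423 genes under 1 FPKM in each RNA column. In hda6 it was LEC1 alone, 1 of 10, against 13.1%, 13.1% and 26.3%. The median change on the log2(RPKM + 0.1) scale was 0.50 for the 10 in sant1234-null, beside 0.09 for all nuclear genes, 0.22 in the same WT range and 0.30 for the genes under 1 FPKM. In hda6 it was 0.27, beside 0.09, 0.24 and 0.32. The shares over 1.5-fold were thus near those of like genes in either mutant.

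Peaks of H3ac were called higher inside 5 of the 10 genes in sant1234-null and in none in hda6. The authors' deposited tables give each peak, mostly 401 bp wide, a log2 concentration in WT and in the mutant, a log2 fold between them (mutant over WT) and an FDR. Peaks overlapping a gene by at least 1 bp were read, and a peak was called at an FDR under 0.05. The deposited fold is smaller in size than the difference between the deposited concentrations for these peaks, so both are given.

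**Figure D3:**
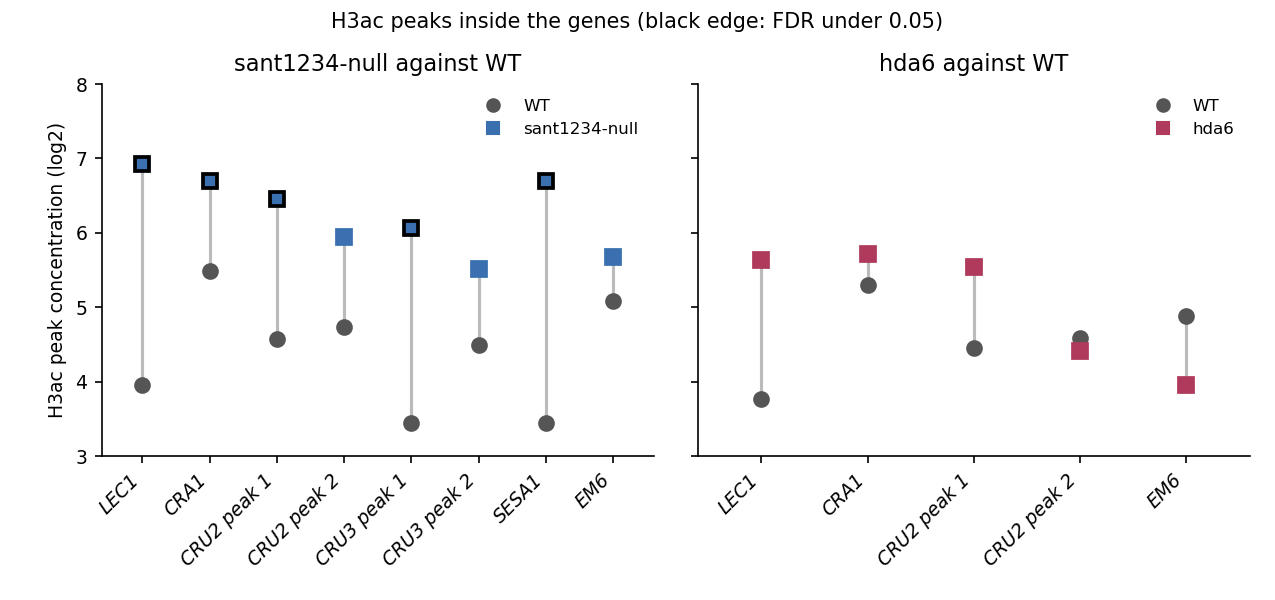
Deposited H3ac peak concentration (log2 scale) in WT and in the mutant for each peak inside the 10 genes, for sant1234-null at left and hda6 at right. Grey lines join the values of a peak, and a black edge marks an FDR under 0.05, which 5 peaks reached in sant1234-null and 0 in hda6.

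The LEC1 peak at chr1:7727909-7728309 had a concentration of 3.96 in WT and 6.92 in sant1234-null, with a fold of 2.76 (SE 0.50 derived from p, FDR 9.95e-07) in the authors' deposited table. In hda6 the LEC1 peak had 3.76 in WT and 5.64 in the mutant, a fold of 0.73 (FDR 0.0668) in the authors' deposited table. LEC1 was the 1 regulator with a peak. LEC2, ABI3 and FUS3 had no listed peak in either table.

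All 3 globulin genes had a called peak in sant1234-null. The CRA1 peak at chr5:17756598-17756998 had 5.49 in WT and 6.70 in the mutant, a fold of 0.85 (SE 0.27, FDR 0.011) in the authors' deposited table. The CRU2 peak at chr1:986843-987243 had 4.57 and 6.45, a fold of 1.28 (SE 0.38, FDR 0.00538), and a second one at chr1:987570-987970 had 4.73 and 5.95, a fold of 0.54 (FDR 0.155), in the authors' deposited table. The CRU3 peak at chr4:14088561-14088961 had 3.45 and 6.06, a fold of 1.62 (SE 0.50, FDR 0.00799), and its second at chr4:14089189-14089589 had 4.49 and 5.51, a fold of 0.40 (FDR 0.297), in the authors' deposited table. In both CRU2 and CRU3 it was the peak nearer the gene start that was called.

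The SESA1 peak at chr4:13607464-13607864 covers much of this short gene and had 3.45 in WT and 6.70 in sant1234-null, a fold of 1.36 (SE 0.51, FDR 0.0313) in the authors' deposited table. The EM6 peak at chr2:16779920-16780320 had 5.09 and 5.67, a fold of 0.19 (FDR 0.638), in the authors' deposited table. OLEO1 had no peak inside it in either table. A peak before OLEO1, in the neighbour AT4G25130, was lower in both mutants, with folds of -0.66 in sant1234-null (FDR 0.00909) and -1.07 in hda6 (FDR 7.7e-05) in the authors' deposited tables.

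In hda6, CRA1 had 5.30 in WT and 5.72 in the mutant (fold 0.25, FDR 0.574) in the authors' deposited table. The CRU2 peaks had 4.45 and 5.54 (fold 0.51, FDR 0.215) and 4.58 and 4.41 (fold -0.04, FDR 0.936), and EM6 4.88 and 3.96 (fold -0.18, FDR 0.642), in the authors' deposited table. No peak was listed in CRU3 or SESA1 in that table. So 4 of the 10 genes had a peak in hda6 and 6 in sant1234-null. The difference between the mutants was not tested.

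The 5 called genes of sant1234-null are 5 of the 10, against 10.7% of all nuclear genes with a called higher peak. They are 5 of the 6 genes with a peak, against 17.2% of 20212 genes with a peak and 45.1% of the 2927 that had a peak and were under 1 FPKM in each RNA column. CRU3 and SESA1 had no listed peak in the hda6 comparison, so they may have entered the genes with a peak through sant1234-null. The same may hold for M17, EEL, LRX1 and TT2 below. In hda6, 0 of the 10 were called higher, against 3.18% of nuclear genes, and 0 of the 4 with a peak, against 5.3% of genes with a peak and 18.3% of those under 1 FPKM. Of peaks in the WT concentration range of the member peaks, 22% were called higher in sant1234-null and 6.52% in hda6. The median fold of the 8 member peaks in sant1234-null was 1.06, beside 0.30 for peaks in that range and -0.02 for all peaks. In hda6 it was 0.25 for 5 peaks, beside 0.09 and -0.23. When the hda6 folds were centred on their median and tested again, the LEC1 peak was called higher (fold 0.96, adjusted p 0.0292) and the split of all called peaks moved from 1317 higher and 5613 lower to 1997 and 844. Errors for this came from the deposited fold and p. As that fold is smaller than the concentration difference, they may be too small, here and for the centred calls below.

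The centres of the 5 called peaks lay in coding exons, at 1540 bp from the gene start in LEC1, 1538 in CRA1, 1292 in CRU2, 1205 in CRU3 and 335 in SESA1. The central 101 bases of each are shown because they are the coding sequence in which H3ac rose, from TAIR10.1 on the strand of the gene, with the middle 21 bases in capitals.
LEC1 peak centre, chr1:7728059-7728159, minus strand: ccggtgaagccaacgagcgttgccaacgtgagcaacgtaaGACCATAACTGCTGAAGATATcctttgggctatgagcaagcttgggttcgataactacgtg
CRA1 peak centre, chr5:17756748-17756848, minus strand: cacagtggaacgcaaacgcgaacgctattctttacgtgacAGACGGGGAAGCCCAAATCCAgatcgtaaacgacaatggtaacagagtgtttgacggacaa
CRU2 peak centre, chr1:986993-987093, plus strand: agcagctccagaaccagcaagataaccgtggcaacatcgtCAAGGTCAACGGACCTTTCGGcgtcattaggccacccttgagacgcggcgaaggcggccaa
CRU3 peak centre, chr4:14088711-14088811, plus strand: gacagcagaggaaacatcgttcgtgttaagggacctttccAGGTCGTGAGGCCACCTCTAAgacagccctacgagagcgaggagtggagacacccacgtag
SESA1 peak centre, chr4:13607614-13607714, plus strand: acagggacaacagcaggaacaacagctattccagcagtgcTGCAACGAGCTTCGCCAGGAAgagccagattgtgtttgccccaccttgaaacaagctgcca

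The 401 bp of these peaks held 50.6% G and C at LEC1, 44.4% at CRA1, 49.9% at CRU2, 54.1% at CRU3 and 49.9% at SESA1. The median was 43.6% for all 24998 peaks of that table, 43.9% for those called higher and 46.6% for those called lower. Each of the 5 was thus above the median of the peaks called higher. Base composition can affect recovery in ChIP-seq, and its part in the peak calls was not tested.

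Calls in RNA and in H3ac could be set side by side for CRA1 in hda6 alone, since the other members were not tested in RNA or had no listed peak. The 5 genes with a called peak in sant1234-null had RNA there of 0 FPKM for LEC1, 0.457 for CRA1, 0.0911 for CRU2, 0 for CRU3 and 0.0641 for SESA1, and none was tested. CRA1 alone of them had over 10 fragments, about 37.7, and its RNA ratio to WT was 1.11. FUS3, with the RNA rise in hda6, had no peak there and an H3ac ratio of 1.38 (counting interval 1.25 to 1.53), and CRA1 in hda6 had an H3ac ratio of 1.21 (1.13 to 1.30) with its peak not called. Of genes within the WT range of the 10, 82.2% had a ratio above 1 in hda6. The H3ac percentile went from 8.44 in WT to 7.53 in hda6 for FUS3 and from 41.9 to 48.2 for CRA1. H3ac was not measured in mbd124, where CRA1 had its highest RNA level.

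The other genes of the programme were read as lists chosen with earlier results known. Of 14 further seed regulators, 10 were tested in each RNA table. By the authors' deposited tests, 0 were higher and 1 lower in hhp1, 1 and 3 in mbd124, 2 and 1 in sant1234-null, and 0 and 1 in hda6. Of all tested genes, 3.26% were lower in hhp1, 4.85% higher and 6.42% lower in mbd124, 9.33% higher and 5.93% lower in sant1234-null, and 4.79% lower in hda6. BZIP53, a basic leucine zipper factor that activates storage promoters with ABI3, was lower in all 4, from 139 to 142.1 FPKM in WT to 94.8 in hhp1 (log2 change -0.58, adjusted p 0.00349), 50.9 in mbd124 (-1.48), 60.7 in sant1234-null (-1.23) and 88.2 in hda6 (-0.66) in the authors' deposited tables. BZIP67, which acts with the nuclear factor Y complex on seed oil and storage genes, fell in mbd124 from 0.767 to 0.186 FPKM (-2.04, adjusted p 0.0123) and rose in sant1234-null from 0.769 to 1.93 (1.33, adjusted p 0.000723) in the authors' deposited tables. In the authors' deposited table EEL, a zipper factor that acts on EM genes, rose in sant1234-null from 6.24 to 16.4 FPKM (1.39, adjusted p 0.00736). In mbd124 the dormancy gene DOG1 fell from 2.50 to 0.988 FPKM (-1.34, adjusted p 0.00163) and ABI5, an abscisic acid response factor, rose from 1.28 to 2.07 (0.69, adjusted p 0.0268) in the authors' deposited table.

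**Figure D4:**
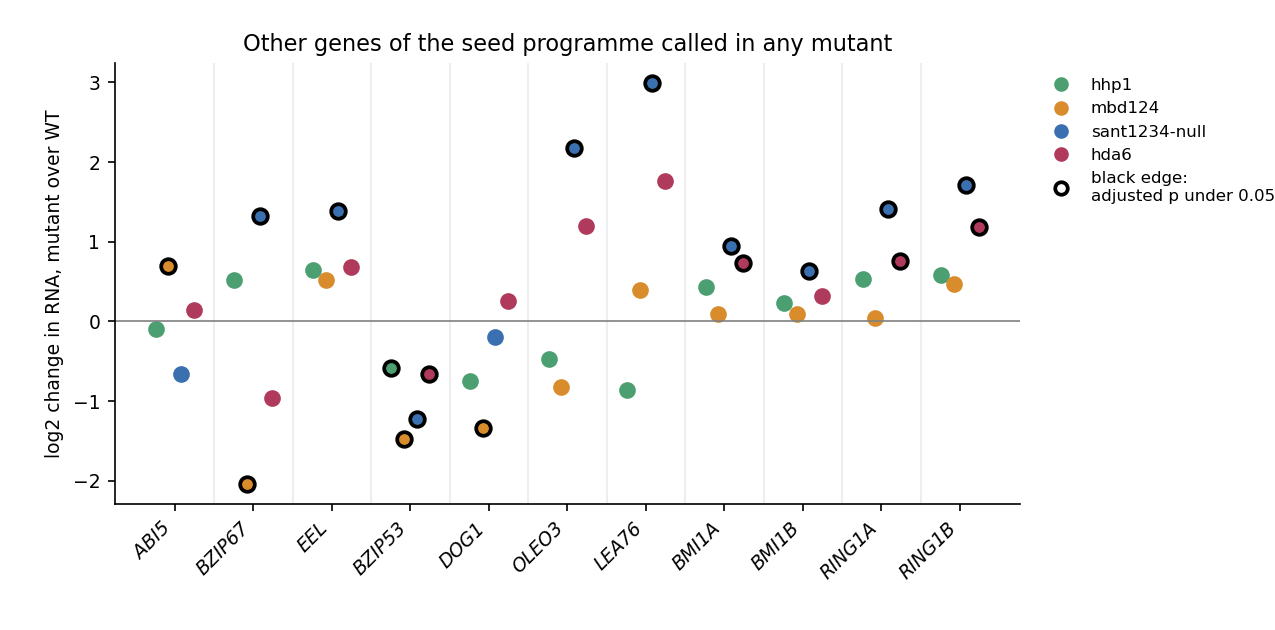
Log2 change in RNA, mutant over WT without a pseudocount, of the listed seed programme genes called in any of the 4 tables. Black edges mark an adjusted p under 0.05 in the authors' deposited tables, and values listed at 0 are not drawn. BZIP53 lies below 0 in each mutant, and RING1A, RING1B, BMI1A and BMI1B lie above 0 in sant1234-null.

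Of 22 further storage, oil body and late embryogenesis genes, 3 were tested in hhp1, mbd124 and hda6 with 0 called, and 4 in sant1234-null with 2 higher, where 9.33% of all tested genes were higher and 38.1% of tested genes under 0.5 FPKM in WT. The oleosin gene OLEO3 rose there from 0.825 to 3.74 FPKM (log2 change 2.18, adjusted p 0.000723) and LEA76, a late embryogenesis gene, from 0.167 to 1.33 (2.99, adjusted p 0.0141) in the authors' deposited table. LEA76 was not tested in the other 3 tables, so it entered the tested genes through the mutant in which it was high. H3ac over the gene was higher than in WT for 22 of the 22 in sant1234-null and in hda6, against 58.6% and 58.2% of nuclear genes. Of genes under 1 FPKM in each RNA column, 73.1% and 79.3% were higher. At least 1.5-fold higher were 9 and 1 of the 22, against 15.8% and 13.1% of nuclear genes and 28.5% and 26.3% of genes under 1 FPKM, and the median ratios were 1.35 and 1.21, beside 1.06 for all nuclear genes in each mutant. On the log2(RPKM + 0.1) scale the median change was 0.30 and 0.32 for genes under 1 FPKM, beside 0.09 for all nuclear genes in each mutant. Their called peaks in sant1234-null were those of the late embryogenesis genes M17 (fold 2.41, FDR 0.000514) and ECP63 (2.23, FDR 6.67e-11) and of the dehydrin gene RAB18 (2.48, FDR 1.15e-09), 3 of 10 genes with a peak, in the authors' deposited table. The share called higher was 17.2% of all genes with a peak and 45.1% of those under 1 FPKM. RAB18, at 13.8 to 14.1 FPKM in WT, is not among the latter. In hda6 it was ECP63 (0.71, FDR 0.0417), 1 of 4 with a peak, in the authors' deposited table, against 5.3% of genes with a peak and 18.3% of those under 1 FPKM.

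Of the further regulators, 7 had a peak in sant1234-null. BZIP67 (fold 1.29, FDR 0.00268) and EEL (1.07, FDR 0.0158) were higher there, and BZIP10 (-0.80) and BZIP25 (-0.57), partners of BZIP53, were lower, in the authors' deposited table, where 17.2% of genes with a peak had a higher and 16.8% a lower one. BZIP67 and EEL were thus called higher in sant1234-null in RNA and in H3ac. The lower peaks of BZIP10 and BZIP25 had WT concentrations of 8.96 and 8.95, and no share was computed for peaks of like WT concentration. In hda6 0 of 6 were higher and 3 lower, BZIP10 (-0.65), BZIP25 (-0.86) and WRI1 (-0.58), a regulator of oil synthesis, in the authors' deposited table, against 30% of genes with a peak called lower. With centred hda6 folds BZIP25 alone of these was called lower (-0.63, adjusted p 0.0359).

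Of 21 repressors of the embryonic programme, all tested, 0 were called in hhp1 and mbd124, 4 were higher in sant1234-null and 3 in hda6, against 9.33% and 7.25% of all tested genes, and none was lower. All 4 encode subunits of Polycomb repressive complex 1, which ubiquitinates histone H2A at seed genes. RING1B rose from 4.12 to 13.5 FPKM in sant1234-null (log2 change 1.71) and from 4.03 to 9.13 in hda6 (1.18, adjusted p 0.000899) in the authors' deposited tables. RING1A rose by 1.41 and 0.76, BMI1A by 0.95 and 0.73, and BMI1B by 0.63 in sant1234-null, in the authors' deposited tables. VAL1, VAL2 and the chromatin remodeller gene PKL were not called in any table. H3ac peaks of this list were called higher at 1 gene in sant1234-null, RING1B (fold 0.97, FDR 0.00591), and lower at 7 of 17 with a peak: the deacetylase genes HDA6 (-0.65) and HDA19 (-0.56), their partner HDC1 (-0.65), the Polycomb genes CLF (-0.49) and MSI1 (-0.59), and the repressors ASIL1 (-0.61) and ASIL2 (-0.69), in the authors' deposited table. Among all genes with a peak 16.8% had a lower one. The called lower peaks of the list had WT concentrations of 7.43 to 10.92. In this table the median fold was 0.30 for peaks at 3.45 to 5.49 in WT and -0.02 for all peaks. No share was computed for peaks of like WT concentration, in either mutant. The called CLF peak is centred before the gene start and overlaps the neighbour AT2G23370, and the peak centred inside CLF was not called (fold -0.47, FDR 0.108). In hda6 0 of 17 were higher and 8 lower, the same 7 genes with folds of -0.59 to -0.81, and LHP1 (-0.79), in the authors' deposited table, against 30% of genes with a peak. At CLF it was again the peak centred before the gene start that was called, not that inside (fold -0.56, FDR 0.106). With hda6 folds centred on their median of -0.23, 0 of the 8 were called lower (centred folds of -0.36 to -0.58, adjusted p of 0.0587 to 0.248).

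Markers of other tissues moved in the same tables. No leaf marker RNA was called. The flower and pollen markers summed to at most 0.335 FPKM in any genotype, with VGD1 and VGDH1 at 0 throughout, and none was tested. The seed coat markers summed to between 0.355 and 0.832 FPKM and none was called. Of the 4 root hair markers (62.7 FPKM summed in WT of the sant1234-null table, 62.6 in sant1234-null), LRX1 was lower in hhp1 (-0.68) and mbd124 (-0.47) and LRX2 lower in hhp1 (-0.60) and higher in sant1234-null (0.77) in the authors' deposited tables. MLS, an enzyme that helps seedlings use up seed oil, rose in sant1234-null from 1.62 to 3.36 FPKM (1.05) and in hda6 (0.90), while ICL, which acts beside it, fell in hda6 from 10.7 to 6.58 (-0.70), in the authors' deposited tables. Called H3ac peaks in sant1234-null were higher at COBL9, LRX1 and LRX2, at VGD1 and VGDH1, at TT2, and at ICL and MLS (folds of 0.65 to 8.77, the last at LRX1, whose WT concentration is listed at 0) in the authors' deposited table. These were 3 of 3 root hair, 2 of 2 flower and pollen, 1 of 2 seed coat and 2 of 2 oil mobilisation genes with a peak, and 0 of 2 leaf markers, against 17.2% of all genes with a peak and 45.1% of those under 1 FPKM. The latter share is a like group for the flower and pollen and the seed coat markers alone. The root hair, oil mobilisation and leaf markers were all over 1 FPKM in WT. In hda6 ICL alone of the markers was higher (0.96) in the authors' deposited table, and with centred folds COBL9 and VGD1 were called higher too (0.97 and 0.92). The part of tissue makeup or seedling age in the values of the 10 genes was not tested.

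Genes with the most like RNA pattern were sought for FUS3 and CRA1, the called members with values above 0 in each column, by the Euclidean distance over the 4 log2 changes among 22845 such genes. Nearest to FUS3 were LBD26 (AT3G27940, distance 0.795), AT5G52070 (1.11) and CYP71A13 (1.22). LBD26 had log2 changes of -0.28 in hhp1, 0.04 in mbd124, -2.20 in sant1234-null and 1.91 in hda6, against 0.09, -0.54, -1.91 and 2.20 for FUS3. LBD26 was called lower in sant1234-null (adjusted p 0.0156) and higher in hda6 (adjusted p 0.000899) in the authors' deposited tables. Nearest to CRA1 were AT3G56790 (0.591), AT1G13310 (1.06) and AT2G04621 (1.08), none of them called in any table. Their WT levels were 0.256, 0.0298 and 0.2 FPKM, so these distances rest on values near the lower limit. Most genes this low are marked as not tested, so the lack of a call says little.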

How the data were processed

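RNA-seq (15 libraries) and H3ac ChIP-seq (9 ChIP and 9 input libraries) were grouped by the genotype in their labels. Per the series' design text, the 3 replicates of a genotype were separate biological samples, but the tables hold 1 value per genotype, and 0 columns of per-sample values were left unused. Tools named in the submitters' processing notes, without roles, are Bowtie2 2.4.1, TopHat2 2.0.12, CASAVA, Cuffdiff, Cufflinks 2.2.1, bedtools, DiffBind and MACS2 2.1.1.20160309, and the build is TAIR10. Not given in the sources used here are settings, strand and how shared reads were counted. The RNA tables hold the authors' FPKM per genotype with a p-value and an adjusted p per the file headers, in the layout of Cuffdiff. The adjusted p equals the Benjamini-Hochberg adjustment over genes marked as tested (21097 in hhp1, 21031 in mbd124, 21439 in sant1234-null and 21450 in hda6). The deposited ChIP gene tables hold a read count, a length, mapped reads and the authors' RPKM, which a recomputation matched from these columns alone, so input was not subtracted. Per the file headers, the deposited peak tables follow DiffBind, with concentrations and a fold on the log2 scale, a p-value and an FDR.

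Log2 changes were recomputed from FPKM, and standard errors derived from change and p by the normal quantile. No test of replicates could be made here, so calls are the authors'. Centred folds were tested again with these errors, and this step was tested on simulated data. The simulated folds and p-values matched the errors by construction, so this could not show whether errors derived from the deposited folds are right. Gene positions matched TAIR10.1 for 32520 of 32548 nuclear genes, so sequences were read from it. They are credited to RefSeq. Values used Python 3.11.15, pandas 2.3.3, numpy 2.4.6 and scipy 1.17.1. The 10 genes are always named, listed genes where called in RNA or H3ac, and the 3 nearest patterns of each called member with RNA in each column. Further globulin and albumin genes are named beside the members in H3ac, called or not. The members and lists were chosen with earlier results of these data known. The alternatives tried were other thresholds, an FPKM filter, other pseudocounts, centring, another scaling of H3ac, another peak overlap and a flank of 1000 bp.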

Additional observations from a re-analysis of the deposited data

How the results depend on the processing

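The tables hold 1 value per genotype, which limits what could be varied. No paired analysis was possible because no value per replicate is in them, and leaving out a replicate was not run for the same reason. Over all alternatives 41 values were equal to the main count or within 1.5-fold of it, or within 0.1 of the main median change. Direction was not compared by this rule. At an adjusted p under 0.01 the genes called in the authors' deposited tables were 774 in hhp1 (1296 at 0.05) and 2162 in sant1234-null (3272), and the calls among the 10 genes in hda6 fell from 2 to 0. With a filter of 1 FPKM, 1 call was left in hda6, since CRA1 stayed under it. The median RNA change of the 10 in hda6 was 0.024 with a pseudocount of 1 FPKM and 0.95 with 0.01, against 0.22 with 0.1. At an FDR under 0.01, 3 of the 10 genes had a called peak in sant1234-null in place of 5, as CRA1 and SESA1 were lost. In hda6, 1 gene had a called peak with 1000 bp on both sides (OLEO1, lower) and 1 with centred folds (LEC1, higher), in place of 0.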
